A study of Mus musculus with 8 samples.

Results

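Zinc enters, leaves and is held in cells by a small set of proteins, and 8 genes of this set were followed through the adult mouse mammary gland. They were *Mt1* and *Mt2*, which encode metallothioneins, *Slc39a8*, *Slc39a10* and *Slc39a14*, which encode importers of the ZIP family, and *Slc30a1*, *Slc30a2* and *Slc30a4*, which encode exporters of the ZnT family. The genes were listed by symbol, 8 of 27998 genes measured, and they were chosen by name with their levels across clusters and stages already known. Levels of these 8 genes are therefore given as a description, mouse by mouse, without a test.

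Single mammary epithelial cells of 8 female C57BL/6N mice were sequenced on the 10x Chromium platform, with 2 mice at each of 4 stages and 1 library for each mouse. Mice were nulliparous and 8 weeks old (NP), pregnant at day 14.5 (G), lactating at day 6 (L), or had weaned their pups naturally 11 days earlier (PI). In all stages the tissue was digested with collagenase and hyaluronidase, EpCAM-positive cells were sorted, and cells with CD31, CD45 or Ter119 at the surface were discarded. The labels name no transgene and no treatment, and the smears of NP1, NP2 and PI2 were classified as estrus and that of PI1 as diestrus.

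Metallothioneins are small, cysteine-rich proteins that bind zinc and copper ions and are induced by zinc, glucocorticoids and several kinds of stress. ZIP proteins move zinc into the cytosol from outside the cell or from vesicles, and ZnT proteins move it out of the cytosol. In the mammary gland, ZnT2 (*Slc30a2*) and ZnT4 (*Slc30a4*) are known for the loading of zinc into milk. The zinc-sensing transcription factor MTF-1 binds metal response elements in promoters, and *Mt1*, *Mt2* and *Slc30a1*, which encodes the plasma membrane exporter ZnT1, are its textbook targets.

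*Mt1* (ENSMUSG00000031765) lies at chr8:94179082-94180327 and *Mt2* (ENSMUSG00000031762) at chr8:94172664-94173568 of GRCm38, both on the plus strand and 5513 bases apart. *Slc30a1* (ENSMUSG00000037434) lies at chr1:191906767-191913247 on the plus strand. The stretches upstream of the first annotated start of these 3 genes are shown because they are the members with a well-known metal response element. They are RefSeq promoter sequences of GRCm38.p6 on the plus strand, at chr8:94178839-94179081, chr8:94172368-94172617 and chr1:191906531-191906766, and capitals mark matches to the core of the element, TGCACNC or TGCGCNC, on either strand.

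Mt1: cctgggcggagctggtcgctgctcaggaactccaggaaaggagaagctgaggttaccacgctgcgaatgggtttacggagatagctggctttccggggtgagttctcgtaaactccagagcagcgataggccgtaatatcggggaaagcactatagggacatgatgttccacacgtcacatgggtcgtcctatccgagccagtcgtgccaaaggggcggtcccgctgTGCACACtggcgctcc
Mt2: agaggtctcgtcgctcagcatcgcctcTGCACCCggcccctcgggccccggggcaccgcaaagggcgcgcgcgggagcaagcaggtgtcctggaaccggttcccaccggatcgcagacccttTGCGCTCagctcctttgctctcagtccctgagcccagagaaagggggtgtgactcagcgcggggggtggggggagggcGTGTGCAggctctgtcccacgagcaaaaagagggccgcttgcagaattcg
Slc30a1: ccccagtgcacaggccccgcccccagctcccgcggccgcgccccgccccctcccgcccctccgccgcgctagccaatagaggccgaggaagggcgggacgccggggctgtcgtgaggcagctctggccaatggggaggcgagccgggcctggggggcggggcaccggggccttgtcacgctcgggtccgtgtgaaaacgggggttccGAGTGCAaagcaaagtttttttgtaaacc

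Over the whole window of 300 bases, from 250 bases before the RefSeq start to 50 after it, *Mt2* held 4 matches and *Mt1* held 3. A window held at least 1 match in 25.7% of 32851 RefSeq windows of the same length, at least 2 in 7.11%, at least 3 in 1.97% and at least 4 in 0.517%. In *Mt1* the match printed above began 23 bases before the RefSeq start, and the other 2, TGCACTC and TGCGCTC, began 2 and 20 bases after it. Both lie upstream of the later *Mt1* starts in the annotation, which are 129 and 159 bases after its first start. *Mt2* has a later start as well, 196 bases after its first, which lies past the end of the window searched. The *Slc30a1* window held 2 matches, of which 1 began 43 bases before the start. Windows were found for 7 of the 8 genes and not for *Slc39a14*. *Slc30a4* had 3 matches, *Slc30a2* had 2, *Slc39a8* had 1 in 1 of its 2 windows, and *Slc39a10* had 0 in either window. A match is a stretch of letters and no measure of binding, and whether any match is a known element was not examined.

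Levels are given as CPM, the UMIs of a gene in every 1000000 UMIs, in sums over all cells of 1 mouse in 1 of the authors' clusters C1 to C15, for sums of at least 20 cells, which gave 35 sums. The clusters hold 23183 cells, and libraries held between 13785920 and 35711533 UMIs. The clusters were checked against marker lists. The hormone receptors *Esr1*, *Pgr* and *Prlr* together reached at least 974 CPM in each sum of the hormone-sensing clusters C1 to C5 and at most 754 CPM elsewhere, that in C12 of PI2. Other lists overlapped with further clusters. Luminal progenitor markers were at 914 to 2390 CPM in C6 and C7 but reached 1491 CPM in C11. Milk protein genes were at 57393 to 447538 CPM in C8 and C9 but reached 72147 CPM in C11. *Krt5*, *Krt14*, *Acta2* and *Myh11* together were at 7059.8 to 36787 CPM in the basal clusters C12 to C14. C15, named for *Procr*-positive basal cells, reached 11378 CPM on this list but stood apart in other ways. Its *Krt14* was at 297 and 276 CPM against 4878 and 5442 CPM in C14 of the same lactation mice. Its pericyte markers (*Rgs5*, *Des*, *Cspg4* and *Pdgfrb*) were at 5441 and 4819 CPM, against at most 109 CPM in any other of the 15 clusters. The cluster is called C15 here. PI had few basal cells, 27 in PI1 and 53 in PI2.

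*Mt1* was highest in C14, the myoepithelial cells of lactation, at 26121 CPM in L1 and 29582 CPM in L2. These cells contract to eject milk. *Mt1* and *Mt2* together made up 3.46% and 3.95% of all UMIs of C14 in L1 and L2. The basal cells of nulliparous mice (C12) had 5366 CPM of *Mt1* in NP1 and 8376 CPM in NP2, and those of gestation (C13) had 6788 CPM in G1 and 6275 CPM in G2. Both lactation mice lay above all 4 of these values, while NP and G overlapped. The few C12 cells of PI lay between them and C14, at 15873 CPM in PI1 and 9279 CPM in PI2.

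Among luminal cells, the differentiated hormone-sensing cells of nulliparous mice (C4) had the highest mean of *Mt1*, with 3705 CPM in NP1 and 6205 CPM in NP2. C4 overlapped with C11, the alveolar progenitors of lactation, at 4544 CPM in L1 and 3670 CPM in L2, and with C9. The alveolar cells of lactation (C9), which make milk, had 2730 CPM in L1 and 4415 CPM in L2, and those of gestation (C8) had 2914 CPM in G1 and 2669 CPM in G2. Luminal progenitors of nulliparous mice (C6) were low, at 675 CPM in NP1 and 1137 CPM in NP2, and alveolar progenitors of gestation (C10) were lowest, at 409 CPM in G1 and 461 CPM in G2. With each cluster taken at the stage that holds most of its cells, the mean of C14 was 64.0 times that of C10. Of the 14 pairs of neighbours in the order of the 15 clusters, 9 had overlapping mice. The mice did not overlap between C14 and C12, between C13 and C4, between C8 and C7, between C5 and C6, or between C6 and C10.

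**Figure D1:**
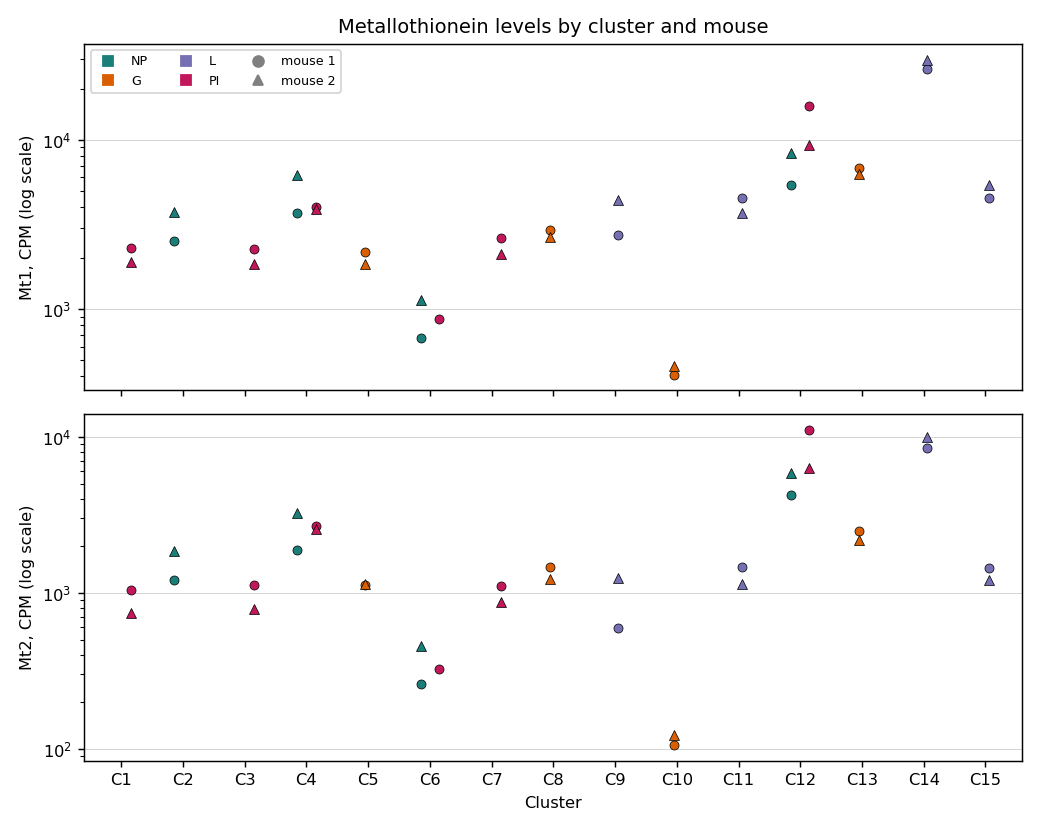
*Mt1* (top) and *Mt2* (bottom) in CPM on log axes, for each mouse in each of the 15 clusters with at least 20 cells. Colours are stages, circles are mouse 1 and triangles mouse 2. C14 of lactation is highest for *Mt1* in both mice, C10 of gestation is lowest for both genes, and NP2 lies above NP1 in every cluster.

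*Mt2* followed nearly the same order. It was at 8513 CPM in L1 and 9913 CPM in L2 in C14, at 4219 CPM in NP1 and 5861 CPM in NP2 in C12, and at 106 CPM in G1 and 123 CPM in G2 in C10. The highest single sum was that of C12 in PI1, with 11033 CPM over 27 cells. Across the 35 sums the Pearson correlation of *Mt1* and *Mt2* on the log2(CPM + 1) scale was 0.95, where sums of 1 mouse share a library. The longest exact stretch shared by the main transcripts of the genes was 20 bases, in transcripts of 549 and 511 bases. The other genes of the family were almost absent, with 18 UMIs of *Mt3* and 7 of *Mt4* over all cells of the 15 clusters against 1557753 of *Mt1* and 594404 of *Mt2*.

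The share of *Mt2* among metallothionein UMIs moved with cell type and stage. For every 100 UMIs of *Mt1*, the basal cells of nulliparous mice had 78.6 UMIs of *Mt2* in NP1 and 70.0 in NP2. Basal cells of gestation had 36.6 in G1 and 34.9 in G2, and C14 of lactation had 32.6 in L1 and 33.5 in L2. The PI mice, with 69.5 in PI1 and 68.2 in PI2, lay beside NP and apart from G and L. So while *Mt1* of basal cells overlapped between NP and G, *Mt2* did not, with 4219 and 5836 CPM in NP against 2486 and 2191 CPM in G over C12 to C14. In hormone-sensing cells the ratio was 50.4 in NP1 and 52.2 in NP2 (C4), and in luminal progenitors it was 38.6 in NP1 and 40.1 in NP2 (C6), so the 3 cell types of the nulliparous gland did not overlap. It was low in C9, with 21.8 in L1 and 28.1 in L2, and in C10, with 25.8 in G1 and 26.7 in G2.

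**Figure D2:**
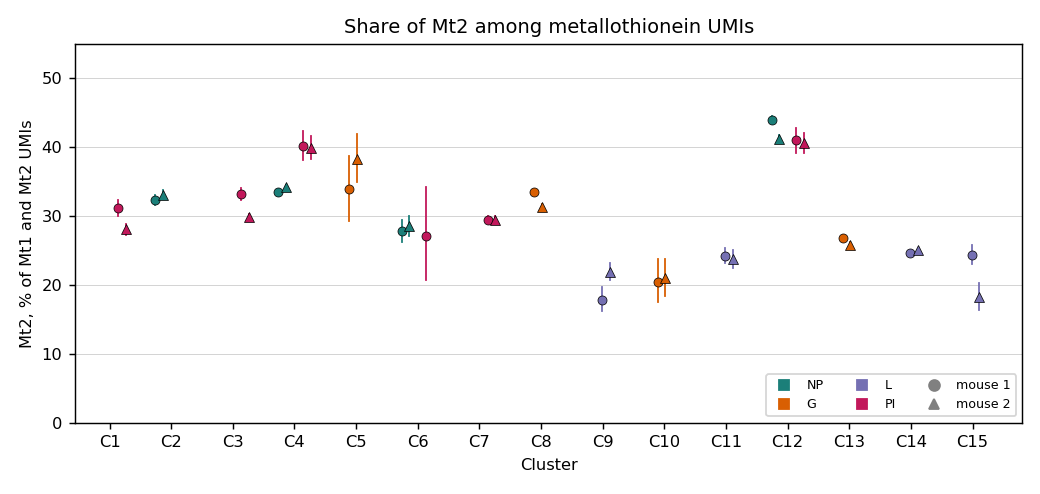
*Mt2* UMIs as a percentage of *Mt1* and *Mt2* UMIs together, for each mouse and cluster. Bars are exact 95% binomial intervals, which cover counting error only. Basal cells of NP and PI (C12) sit above those of G (C13) and L (C14), with no overlap between mice.

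Mice of 1 stage differed in a shared way. *Mt1* was higher in NP2 than in NP1 in 4 of 4 clusters, by 1.48 to 1.68 times, and *Mt2* in 4 of 4, by 1.39 to 1.75 times. In PI, *Mt1* was lower in PI2 than in PI1 in 5 of 5 clusters, at 0.585 to 0.977 of its level. *Mt1* varied widely between the cells of 1 mouse as well. In C14 of L1 the tenth percentile of cells was at 6465 CPM, the median at 26181 CPM and the ninetieth percentile at 58482 CPM, over 4637 cells. *Mt1* and *Mt2* went together within this cluster, with a Spearman correlation over cells thinned to 1000 UMIs each of 0.72 in L1 and 0.64 in L2, where the 2 counts share a cell's library.

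In the lactation libraries basal RNA was also counted in other clusters, and this bears on their *Mt1*. In C11, the alveolar progenitors of lactation, *Mt1* was at 4544 CPM in L1 and 3670 CPM in L2, which is 17.4% and 12.4% of its level in C14. *Krt5*, *Krt14*, *Acta2* and *Myh11* were at 13.6% to 17.5% of their C14 level in C11 of L1 and at 10.7% to 14.1% in L2, so that *Mt1* fell within the range of the basal markers in both mice. In C9, *Mt1* was at 10.5% and 14.9% of C14, above the 4 markers, which reached at most 6.27% in L1 and 4.27% in L2. In C18, a cluster rich in the fibroblast genes *Col1a1*, *Col3a1*, *Dcn* and *Fn1* that lies outside the 15, *Mt2* was at 30.7% and 25.6% of C14 while the markers reached at most 5.50% and 4.62%. The part of basal RNA in each level was not tested.

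**Figure D3:**
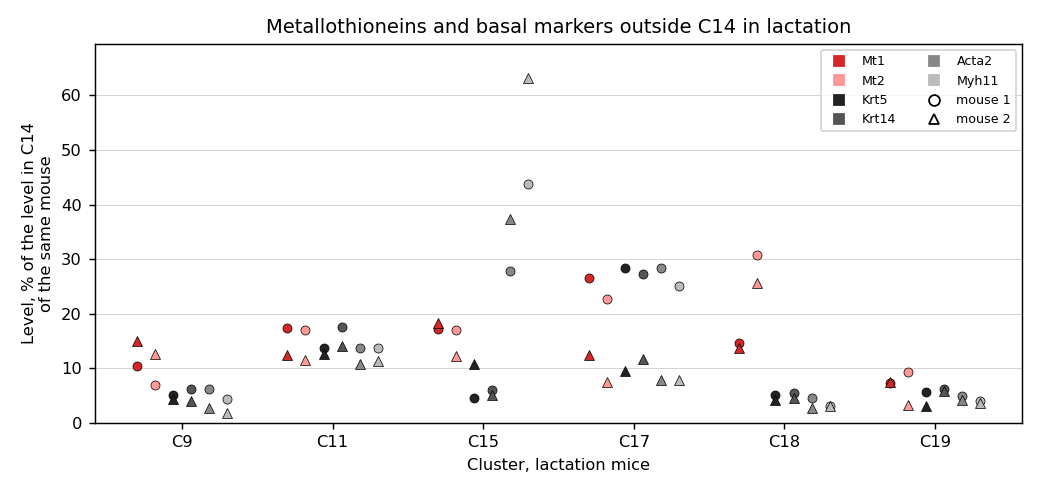
*Mt1* and *Mt2* (red) and 4 basal markers (grey) in clusters other than C14, as a percentage of the level in C14 of the same lactation mouse, with circles for mouse 1 and triangles for mouse 2. In C11 the red points lie among the grey ones, and in C9 and C18 they lie above them, while in C15 *Acta2* and *Myh11* lie above *Mt1*.

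Stress genes were also measured in the basal clusters, since stress is a known inducer of metallothioneins. In C14, 14 immediate-early and heat-shock genes summed to 37413 CPM in L1 and 30925 CPM in L2, against 8898 CPM in G1 and 5567 CPM in G2 (C13) and 4169 CPM in NP1 and 3852 CPM in NP2 (C12). *Fos* alone was at 8879 CPM in L1 and 6663 CPM in L2, against 1415 and 630 CPM in G1 and G2, and 14 of the 14 genes were higher in both lactation mice than in both gestation mice. From C12 of NP to C13 of G 12 of the 14 were higher without overlap as well, while *Mt1* overlapped and *Mt2* was lower. The list of 14 stress genes was at 10509.7 to 37413 CPM in every lactation sum of the 15 clusters. In the other stages it was at 3852 to 14291 CPM, highest in C10 of G1, where *Mt1* was lowest. *Socs3*, a target of cytokine signalling through STAT3, was at 2448 and 2568 CPM in C14 of L1 and L2. It was at 212 and 86.5 CPM in C13 of G1 and G2. Its whole list of 7 genes was at 3993 and 4754 CPM against 2964 and 2991 CPM, but this rested on *Socs3*. Of the 7 genes, *Socs3* and *Cebpb* were higher in both lactation mice, *Il6ra*, *Lcn2* and *Stat3* were lower, and 2 overlapped. The sum of 7 measured glucocorticoid targets was lower, with 1679 and 1642 CPM in C14 against 3284 and 3187 CPM in C13, but this rested on *Errfi1*, at 769 and 697 CPM against 2545 and 2573 CPM. Without it the sum was 910 and 945 CPM in C14 against 739 and 614 CPM in C13, and 4 of the 7 genes, among them *Zbtb16* and *Fkbp5*, were higher in both lactation mice and 2 were lower. Of 7 oxidative stress genes 6 were lower in both lactation mice, while *Nqo1* was higher, at 44.2 and 39.7 CPM against 13.4 and 10.1 CPM. These counts of genes stand beside a high share over all genes. Of genes with at least 15 UMIs, 74.7% did not overlap in either direction between G and L in basal cells. Between NP and G the share was 72.0%. Whether the lists depart from these shares was not tested. The part of the stress, cytokine, glucocorticoid and oxidative responses, or of the digestion, in the level of *Mt1* was not tested.

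*Slc39a14* (chr14:70303469-70351425, minus strand), which encodes ZIP14, an importer of zinc and iron induced in inflammation, gave the most UMIs of the 6 transporters, 10959 over the 15 clusters. Counts are of molecules tagged at 1 end of the transcript, so CPM of different genes do not scale with transcript length. In luminal progenitors of PI (C7) it was at 203 CPM in PI1 and 188 CPM in PI2, and in hormone-sensing progenitors of PI (C1) at 113 and 106 CPM. The corresponding cells of nulliparous mice had 58.2 and 64.3 CPM (C6) and 29.4 and 40.2 CPM (C2), so NP and PI did not overlap in either cell type. C11, C14, C9 and C6 lay close together between 58.2 and 72.9 CPM and overlapped as neighbours in the order, and the few C12 cells of PI had 80.7 and 109 CPM. Differentiated hormone-sensing cells were lower, at 14.61 and 14.53 CPM in NP (C4) and 22.8 and 21.1 CPM in PI (C3), and C15 was lowest at 13.97 and 4.45 CPM. Of 14 neighbouring pairs, 8 overlapped.

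*Slc39a8* (chr3:135825279-135888572, plus strand), which encodes ZIP8, an importer of zinc and manganese, had a narrower range of cells. It was at 48.9 CPM in L1 and 102 CPM in L2 in the alveolar cells of lactation (C9), at 55.9 CPM in PI1 and 38.2 CPM in PI2 in C7, and at 37.0 and 17.5 CPM in C1. C9 and C7 overlapped, as did 9 of 14 neighbouring pairs. The alveolar cells of gestation (C8) had 1.10 CPM in G1 and 0.638 CPM in G2, and the nulliparous luminal progenitors (C6) 1.51 and 0.415 CPM. In 22 cells of PI1 that fell in C6, the cluster that holds mainly nulliparous progenitors, there were 4 UMIs, or 26.4 CPM. In C7 a UMI was found in 28.9% of cells of PI1 (95% interval 25.8 to 32.1) and in 19.1% of PI2 (16.8 to 21.5), against 0.243% and 0.201% of C3 cells of the same mice. Median depths were 6484 and 5579 UMIs per cell in C7 and 7179 and 5638 in C3. After thinning to 1000 UMIs per cell the shares in C7 were 5.70% and 3.54%, and in C3 they were 0 of 412 and 0 of 2487 cells, which allows up to 0.728% and 0.121%. The highest levels of all were outside the epithelium, in C19, where endothelial markers were at 1929.8 to 2872 CPM, with 197 CPM in G1 and 107 CPM in G2 and 23.5 and 24.2 CPM in L1 and L2.

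*Slc39a10* (chr1:46807544-46892852, minus strand), which encodes the plasma membrane importer ZIP10, was highest in basal clusters. It was at 59.7 CPM in G1 and 59.9 CPM in G2 in C13, at 38.3 and 38.8 CPM in C14 of lactation and at 30.6 and 37.1 CPM in C12 of NP. These 3 clusters did not overlap with each other or with C15, which had 15.5 and 17.8 CPM. The few C12 cells of PI, with 26.9 CPM in PI1 and 59.9 CPM in PI2, reached from below C12 of NP to the level of C13. All luminal sums were at or below 16.8 CPM, and C7, where *Slc39a14* was highest, had the lowest *Slc39a10* with 3.38 and 3.39 CPM. Of 14 neighbouring pairs, 10 overlapped, all among luminal clusters and C15. C19 exceeded the basal clusters, with 140 and 102 CPM in G and 65.6 and 64.5 CPM in L.

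**Figure D4:**
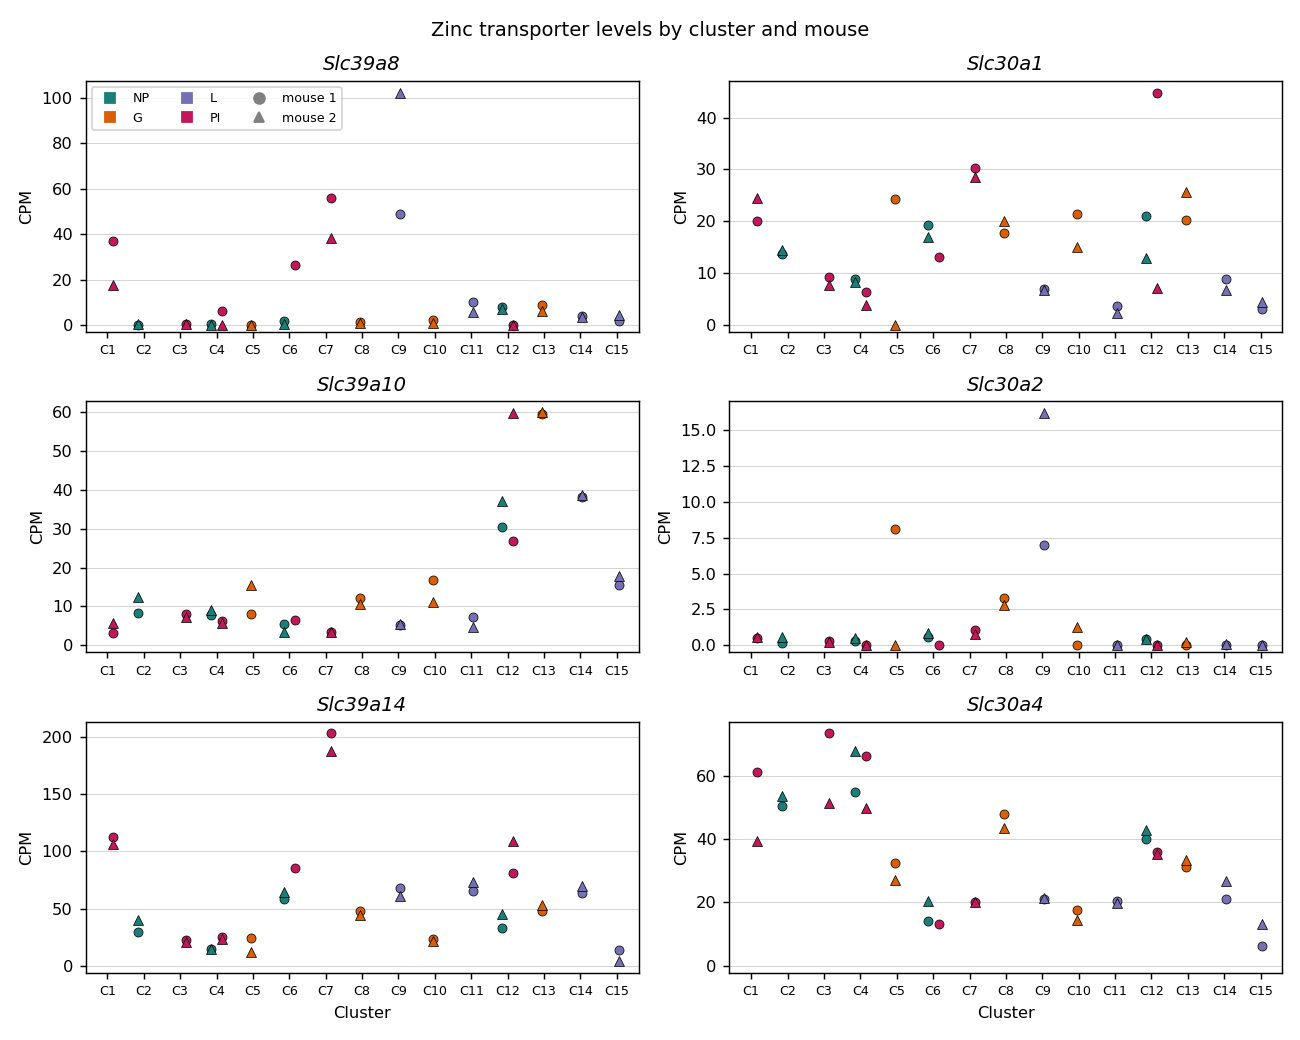
CPM of the 3 importers (left) and the 3 exporters (right) for each mouse and cluster, on linear axes that differ between panels. Colours are stages, circles mouse 1 and triangles mouse 2. *Slc39a14* and *Slc39a8* peak in C7 and C9, *Slc39a10* in C12 to C14, and *Slc30a4* in C1 to C4, and the C12 points of PI come from 27 and 53 cells.

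*Slc30a4* (chr2:122681233-122702663, minus strand), the gene of ZnT4, was at its highest among the 15 clusters in hormone-sensing cells, with 73.8 and 51.4 CPM in C3 of PI and 54.9 and 68.0 CPM in C4 of NP. C8 of gestation had 48.0 CPM in G1 and 43.7 CPM in G2, and C9 of lactation had 21.0 CPM in L1 and 21.6 CPM in L2. The alveolar cells of both stages were thus below C3 and C4, and the lactation mice were below the gestation mice per UMI. The hormone-sensing cells of gestation (C5), 11 UMIs in all, were lower than C8, at 32.5 CPM in G1 and 27.1 CPM in G2. Luminal progenitors were at 14.2 to 20.3 CPM in C6 and C7, and C15 was lowest at 6.21 and 13.3 CPM. Outside the 15 clusters, C19 had 68.7 and 109 CPM in G and 27.2 and 40.3 CPM in L. Of 14 neighbouring pairs, 8 overlapped.

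*Slc30a2* (chr4:134343181-134354484, plus strand), the gene of ZnT2, gave 216 UMIs over the 15 clusters. It was at 6.99 CPM in L1 and 16.2 CPM in L2 in C9, and at 3.33 CPM in G1 and 2.82 CPM in G2 in C8. The G and L mice did not overlap, but C9 rested on 16 UMIs. In C9 3 of 42 cells of L1 (7.14%, 95% interval 1.50 to 19.5) and 9 of 47 cells of L2 (19.1%, 9.15 to 33.3) had a UMI. In C14, the largest cluster of the same mice, 0 of 4637 cells of L1 had one, which allows a share of up to 0.0647%, and 2 of 3104 cells of L2, at median depths of 3701 and 4148 UMIs per cell against 11602 and 16271 in C9. C11 of the same mice had 0 of 142 and 0 of 89 cells with a UMI, which allows up to 2.11% and 3.37%. All other epithelial sums were at or below 1.25 CPM, except that of C5 in G1 with 8.11 CPM, which is 1 UMI in 20 cells. Of 14 neighbouring pairs, 11 overlapped.

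*Slc30a1* was spread more evenly. It was at 30.3 CPM in PI1 and 28.6 CPM in PI2 in C7, at 20.2 and 25.6 CPM in C13 and at 20.1 and 24.5 CPM in C1. With each of the 15 clusters taken at the stage that holds most of its cells, those of lactation had the lowest means. C14, at 8.95 and 6.74 CPM, overlapped with C4 of NP (8.92 and 8.27 CPM) and C3 of PI (9.30 and 7.66 CPM). C4 of PI, with 4 UMIs, was at 6.32 and 3.83 CPM. The other lactation clusters were C9 at 6.99 and 6.74 CPM (9 UMIs), C15 at 3.10 and 4.45 CPM (3 UMIs) and C11 at 3.70 and 2.35 CPM (6 UMIs). C19, outside the 15, was higher than any of these in lactation, with 35.9 CPM in L1 and 56.4 CPM in L2, and the few C12 cells of PI, with 7 UMIs, were at 44.8 and 7.05 CPM. C14, the cluster with the most *Mt1*, was among the lowest for *Slc30a1*, and over the 35 sums the correlation of these genes was -0.13. Of 14 neighbouring pairs, 11 overlapped.

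The genes whose levels were most like those of a member were sought among 9753 genes that reached 20 CPM in at least 1 of the 35 sums, by Pearson correlation on the log2(CPM + 1) scale. A gene could pass this limit through 1 sum alone, also 1 in which the member was high. The sums share libraries and clusters as well, so the coefficients are descriptions and no support for a link. For *Mt1* they were *Dzip1* (0.82), *Nfil3* (0.80) and *Bdnf* (0.80), and for *Mt2* *Dzip1* (0.79), *Arid5b* (0.77) and *Man1a* (0.77). For *Slc39a14* they were *Lcn2* (0.86), which encodes the iron-scavenging lipocalin 2, *Dusp14* (0.85) and *Vdr* (0.81), the vitamin D receptor. *Slc39a8* was most like *Saa1* (0.77), an acute phase gene, *A630023A22Rik* (0.77) and *C530043A13Rik* (0.75). *Slc39a10* was most like *Adgra3* (0.88), *Asph* (0.87) and *Moxd1* (0.86). *Slc30a1* was most like *Axin1* (0.80), *Tnfsf10* (0.79) and *G3bp1* (0.77), and *Slc30a4* like *Cd164l2* (0.84), *Prdx6* (0.82) and *Fgg* (0.80). *Slc30a2* was most like *Rnase1* (0.80), *1700012B07Rik* (0.74) and *Orm2* (0.71). Of its 216 UMIs over the 15 clusters, 150 were in C8 and 16 in C9, so its coefficients rest on few counts in the other clusters. *A630023A22Rik* and *Rnase1* reached at most 21.6 and 33.7 CPM in any sum, against the limit of 20 CPM. *Axin1* ranged from 0 to 71.7 CPM.

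Next, stages were compared within a cell type, in sums over its clusters for each mouse, to ask how the genes differ between stages in cells of 1 kind. In luminal progenitors (C6 and C7), *Mt1* was at 675 and 1135 CPM in NP1 and NP2 and at 2601 and 2109 CPM in PI1 and PI2, a mean 2.60-fold higher after involution. The 22 cells of PI1 that fell in C6 had 870 CPM of *Mt1* and 323 CPM of *Mt2*, within the range of the NP mice in that cluster for both genes. *Slc39a8* was at 1.51 and 0.414 CPM in NP and 55.3 and 38.0 CPM in PI, 48.5-fold higher. The NP side held 6 UMIs, and the ratio was 113 without NP1 and 30.9 without NP2. *Slc39a14* was at 58.2 and 64.2 CPM in NP and 201 and 188 CPM in PI, 3.17-fold higher. *Slc30a1* was at 19.3 and 16.97 CPM in NP against 30.0 and 29.0 CPM in PI. With *Mt2*, 5 of the 8 genes were higher in both PI mice than in both NP mice and 0 were lower, where 63.9% of 12007 genes with at least 15 UMIs did not overlap in 1 direction or the other. *Lcn2* was also higher, at 9996 and 10297 CPM in C7 against 3252 and 3485 CPM in C6 of NP.

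In differentiated hormone-sensing cells (C3 and C4) the metallothioneins lay the other way. *Mt1* was at 3681 and 6191 CPM in NP1 and NP2 and at 2405 and 1911 CPM in PI1 and PI2, and *Mt2* at 1854 and 3230 CPM in NP and 1255 and 844 CPM in PI, with no overlap for either gene. The cells of PI mice that fell in C4 had 3972 and 3880 CPM of *Mt1*, within the range of the NP mice in that cluster, and those in C3 had 2256 and 1845 CPM. *Slc39a14* was 1.52-fold higher in PI. In all, 2 genes were higher and 3 lower without overlap, and 55.5% of 13039 genes did not overlap. *Slc39a8* and *Slc30a2*, which are among these 5, had 8 and 5 UMIs in PI.

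In differentiated alveolar cells (C8 in gestation, C9 in lactation) CPM are tied to milk, since milk protein genes took 7.70% of UMIs in G and 43.0% in L. The median of all genes fell by 0.94 on the log2 scale in CPM and by 0.15 after TMM scaling, which sets most genes level. Differences on the log2 scale are those of log2(mean CPM + 1). For genes of low CPM they are smaller than the log2 of the plain ratio. *Slc39a8* was higher in lactation under each scale tried, by 5.35 in CPM and 6.00 after TMM, as was *Slc30a2* (1.62 and 2.38) and *Slc39a14* (0.52 and 1.39). *Slc30a4*, at -1.08 in CPM, was at -0.21 after TMM, *Slc30a1* at -1.35 and -0.53, and *Slc39a10* at -0.98 and -0.19. *Mt1* overlapped between the mice in CPM (log2 difference 0.35) and was at 1.26 after TMM. *Mt2* changed sign with the scale, from -0.56 to 0.36. The plain ratio of L to G in mean CPM has nothing added to the CPM. Without L2 it was 55.9 in place of 86.8 for *Slc39a8*, 2.25 in place of 3.75 for *Slc30a2* and 0.440 in place of 0.679 for *Mt2*. In CPM 3 genes were higher and 3 lower without overlap, beside 79.5% of 13206 genes, and the lactation side rests on 43 and 48 cells.

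In basal cells from gestation (C13) to lactation (C14), *Mt1* rose 4.28-fold and *Mt2* 3.94-fold in mean CPM. The importers parted, with *Slc39a14* at 47.3 and 52.7 CPM in G and 63.3 and 69.7 CPM in L and *Slc39a10* at 59.4 and 59.2 CPM in G and 38.3 and 38.9 CPM in L. *Slc30a1* was lower in lactation, with 20.1 and 25.6 CPM in G against 8.94 and 6.74 CPM in L, and *Slc39a8* and *Slc30a4* were lower as well. Without overlap, 3 genes were higher and 4 lower, and 74.7% of 14189 genes did not overlap. From NP to G in basal cells, *Slc39a10* was 1.75-fold higher, with 30.6 and 37.3 CPM in NP, while *Mt2* was at 0.465 of its NP level, and 2 genes were higher and 3 lower without overlap, beside 72.0% of 12354 genes. These comparisons share the G mice.

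**Figure D5:**
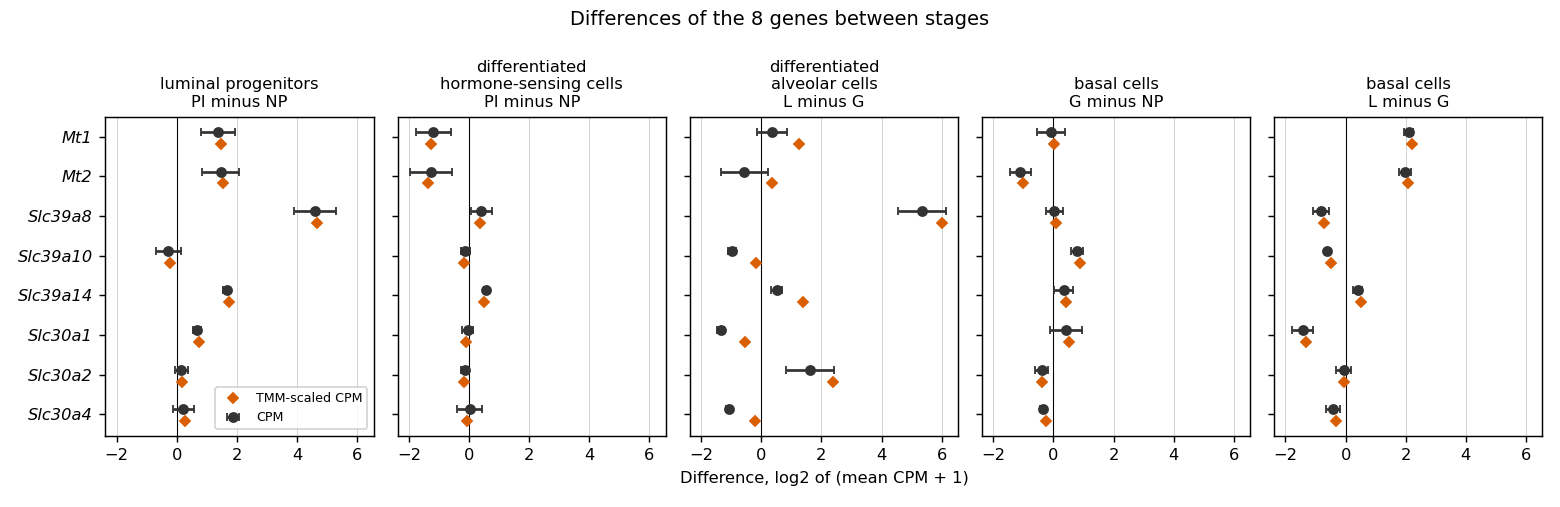
Difference of each of the 8 genes between stages in 5 comparisons, as log2 of (mean CPM + 1), in CPM (black, with bars of 1 SD of the difference from the spread of 2 mice on each side) and after TMM scaling (orange). The scales part most in differentiated alveolar cells, where *Mt2* moves from -0.56 to 0.36.

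The other genes of zinc handling were tested as whole families, with earlier results of these data known. They were 22 genes, the metallothioneins *Mt3* and *Mt4*, 11 ZIP and 7 ZnT genes, and the sensors *Mtf1* and *Gpr39*, with the quasi-likelihood F-test of edgeR and p-values adjusted over all genes by Benjamini-Hochberg. In luminal progenitors 3 of 13 tested changed between NP and PI, where 26.9% of 10766 genes did (13.9% higher and 13% lower). *Slc39a7*, which encodes the importer of the endoplasmic reticulum and Golgi, ZIP7, rose (log2 fold change 0.54, SE 0.14, adjusted p = 0.0127). *Slc39a3* fell by 1.08 (SE 0.32, adjusted p = 0.0304), and *Slc30a9* fell by 0.65 (SE 0.15, adjusted p = 0.0104). In differentiated hormone-sensing cells 0 of 14 passed in edgeR, beside 14.3% of 11994 genes (7.64% higher and 6.65% lower), and 0 passed at an unadjusted p under 0.05 or in DESeq2.

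In differentiated alveolar cells 3 of 14 changed from gestation to lactation, where 18.7% of 11860 genes did (9.54% higher and 9.17% lower). *Slc39a7* rose by 1.25 in log2 after TMM scaling (SE 0.18, adjusted p = 0.000456, edgeR) and was also higher in CPM, with 53.3 and 55.8 in G and 65.8 and 72.5 in L. *Slc39a13*, encoding another importer of the secretory pathway, rose by 2.08 after TMM scaling (SE 0.57, adjusted p = 0.0232, edgeR). Its levels were low, at 3.48 and 3.19 CPM in G and 8.66 and 6.71 CPM in L, the latter over 43 and 48 cells. *Slc39a4*, the intestinal importer gene mutated in acrodermatitis enteropathica, fell (adjusted p = 0.0136, edgeR), from 11.2 and 11.7 CPM in G to 0 UMIs in both lactation mice, at least 5.04-fold lower in CPM with a limit of 3 UMIs over both mice.

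In basal cells 5 of 13 changed between NP and G, all downward, where 46.1% of 11086 genes changed (24.3% higher and 21.9% lower). *Slc39a9* fell by 1.30 (SE 0.25, adjusted p = 0.000574, edgeR) and *Slc39a11* by 1.22 (SE 0.47, adjusted p = 0.0443, edgeR), and *Slc39a6* and *Slc39a7* fell too. *Mtf1*, the gene of the zinc sensor, was at 34.8 and 29.6 CPM in NP and 18.1 and 20.6 CPM in G and fell by 0.66 (SE 0.19, adjusted p = 0.0106, edgeR). Between G and L 6 of 13 changed, 1 up and 5 down, where 48.3% of 12720 genes changed (24.2% higher and 24.0% lower). *Mtf1* fell again, to 12 and 11.8 CPM, by 0.59 (SE 0.18, adjusted p = 0.0226, edgeR), *Slc39a3* rose by 1.61 (SE 0.34, adjusted p = 0.00499, edgeR), and *Slc39a4* fell by 1.82 (SE 0.64, adjusted p = 0.0439, edgeR) from a level of 2.26 and 1.12 CPM. *Slc39a6*, *Slc39a7* and the Golgi transporter gene *Slc30a5* fell as well, the last by 0.56 (SE 0.17, adjusted p = 0.0228, edgeR).

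Of 14 genes of copper and iron handling, 7 of 13 tested changed in luminal progenitors, 6 upward, where 26.9% of all genes changed. *Trf*, the gene of transferrin, which carries iron in plasma and milk, rose by 3.17 (SE 0.20, adjusted p = 1.92e-06, edgeR), and *Fth1*, of the ferritin heavy chain, by 1.52 (SE 0.17, adjusted p = 0.000111, edgeR), while *Ftl1*, *Slc31a1*, *Cp* and *Ccs* rose too and *Atox1* fell. In differentiated hormone-sensing cells 4 of 13 rose and 1 fell, beside 14.3% of all genes, with *Heph* up by 3.35 (SE 0.41, adjusted p = 0.00034, edgeR) and *Trf* up by 1.50 (SE 0.25, adjusted p = 0.00229, edgeR), and *Slc31a1* and *Ccs* rose while *Cp* fell. In differentiated alveolar cells 5 of 14 rose after TMM scaling and 0 fell, beside 18.7% of all genes changed, of which *Atox1* was lower in CPM in both lactation mice and *Ftl1* and *Tfrc* overlapped between the stages in CPM. *Trf* rose by 3.73 (SE 0.24, adjusted p = 4.04e-07, edgeR) and *Cp*, of ceruloplasmin, by 2.90 (SE 0.23, adjusted p = 2.42e-06, edgeR). In basal cells 4 of 12 rose and 2 fell between NP and G, a share near the 46.1% of all genes, with *Heph* up by 2.10 (SE 0.41, adjusted p = 0.000595, edgeR) and *Cp* up by 1.37 (SE 0.13, adjusted p = 8.33e-07, edgeR). *Atp7a* and *Ccs* rose and *Slc11a2* and *Atox1* fell in the same comparison. Between G and L 1 of 13 rose, *Ccs*, and 6 fell, near the 48.3% of all genes, with *Slc40a1* down from 2.26 and 1.35 CPM to 0.426 and 0.301 CPM (adjusted p = 0.0148, edgeR) and *Tfrc* from 22.1 and 20.6 CPM to 4.49 and 6.62 CPM (adjusted p = 0.000489, edgeR), beside *Heph*, *Slc31a1*, *Trf* and *Ftl1*.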

How the data were processed

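The authors sequenced 8 libraries and deposited UMI counts per gene and cell barcode, made with Cell Ranger (STAR) on mm10, whole numbers without normalisation. Versions of Cell Ranger and STAR are not given in the sources used here. A deposited annotation by the authors gives for each cell its library, cluster, UMI count, quality flags and the mitochondrial fraction of UMIs. Cells that passed all of the authors' flags were used, 25009 of 25806 barcodes, without the 791 cells whose barcode occurs in more than 1 library. The 310 cells of C20, which the authors treated as doublets, were left out, and no doublet caller was run. The annotation holds 1 further cell without a barcode in the counts.

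Members and gene lists were chosen with earlier results of these data known. UMIs of all cells of 1 mouse in 1 cluster were added up where there were 20 cells or more, and divided by the total (CPM). The named genes were the 8 members, the 3 genes most like each, and genes past the test from 5 lists (other metallothioneins, ZIP, ZnT, zinc sensors, and copper and iron), with values for the 2 with the largest fold change per list and comparison. *Slc39a7* in alveolar cells was named after its values were seen. Stress and marker lists were summed. Tests used edgeR 4.0.16 in R 4.3.3 (TMM, filterByExpr with a minimum count of 10 and 15 in all, quasi-likelihood F-test, Benjamini-Hochberg at 0.05) on sums of 2 mice against 2, with no covariate. With 2 mice against 2 an exact permutation test cannot go below p = 0.333, so none is given. Libraries held 13785920 to 35711533 UMIs. Intervals are exact (Clopper-Pearson, 95%), a count of 0 allows up to 3 counts, and both cover counting error only. For alternatives, DESeq2 1.42.0, no filter, thinned sums, a replicate block, other scales and leaving out each mouse were run. The test was tried on simulated counts. Python 3.11.15, numpy 2.4.6, scipy 1.17.1 and matplotlib 3.10.9 were used. Promoters and gene positions are those of RefSeq and GENCODE M21 for GRCm38, matched by symbol and gene ID. The combined matrix of all libraries holds the same counts and was not used.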

Additional observations from a re-analysis of the deposited data

Results flagged for a closer look

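The metallothioneins differed in opposite directions between NP and PI in 2 cell types. In luminal progenitors both PI mice were above both NP mice, and in differentiated hormone-sensing cells both PI mice were below both NP mice. The difference of log2(mean CPM + 1) between PI and NP was 1.38 against -1.19 for *Mt1*, a gap of 2.57 between the cell types. It was 1.45 against -1.28 for *Mt2*, a gap of 2.73. The gap itself was not tested. All 4 mice contribute to both cell types, and PI1 and NP2 were the higher mouse of their stage in both.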

How the results depend on the processing

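The counts of other zinc genes are small and depend on the settings. DESeq2 gave 1 in place of 3 in luminal progenitors, 1 in place of 5 in basal cells from NP to G and 3 in place of 6 from G to L. Sums thinned to the smallest sum gave 1 in place of 3 in differentiated alveolar cells, where only 4 genes could be tested in place of 14. Fewer could also be tested there without G1 (7) or G2 (8). Leaving out 1 mouse gave 1 to 3 in luminal progenitors (1 without NP1), 0 to 2 in differentiated hormone-sensing cells (2 without PI1, 1 without PI2), 1 to 2 in differentiated alveolar cells (1 without G2), 2 to 4 in basal cells from NP to G (2 without G1, NP1 or NP2) and 3 to 5 from G to L (3 without L2). The counts of copper and iron genes moved too, from 7 to 4 without NP1 in luminal progenitors, from 5 to 3 without NP1 or NP2 in differentiated hormone-sensing cells, from 5 to 3 without G2 and 2 without L2 in differentiated alveolar cells, and from 6 to 2 with DESeq2 and 3 without NP1 in basal cells from NP to G. The labels do not say whether mice of different stages with the same number share more than the number. The correlations of their deviations were -0.04 to 0.05, and a shared batch was not tested. The replicate block gave 3, 0, 3, 4 and 7 calls in the order above, where the unblocked test gave 3, 0, 3, 5 and 6. Of the 40 differences of members, the sign was kept in 263 of 280 alternatives, and 31 of the 40 kept it in all. Of the 19 member differences that moved by more than the spread of mice, most came from alveolar cells with other scales. Thinning cells to 1000 UMIs, which leaves fewer UMIs to detect, moved 114 of 120 shares of cells with a UMI out of their interval. *Mt1* of basal cells between NP and G was near 0 (-0.07, and 0.28 without NP2). With 2 mice in each stage, with C9 of 42 and 47 cells, and with stage and cluster nearly the same, effects of stage and of cell state cannot be told apart.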
